A study of Mus musculus with 2 samples.

Results

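The immunoglobulin light chain segments are the V and J gene segments of the kappa and lambda loci. They were taken as the array features (transcript clusters) whose platform annotation holds exactly 1 symbol, counted once where it is repeated, that starts with Igkv, Igkj, Iglv or Iglj and a number. This gave 87 of 61344 features, with 1 such feature per segment: 86 V kappa segments from 20 V families, the J kappa segment Igkj3, and no lambda segment. All 87 symbols stood in the GRCm38.p6 gene table, all on chromosome 6. That table holds 162 V kappa entries, of which these 86 had a feature of their own. The lambda V and J segments and the other J kappa segments were annotated only on features that list several symbols, which are not members.

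The RNA came from cells sorted as regulatory innate lymphoid cells (ILCregs) from the small intestine of 8-week-old mice. The animals were of the C57BL/6 strain and carried the IL-10-GFP knockin, a green fluorescent protein reporter at the locus of interleukin 10. The series has 2 arrays of this 1 group, called array 1 (replicate 1) and array 2 (replicate 2) here, and no other population, treatment or genotype. The labels do not state whether separate animals or separate sorts gave the replicates, and their spread may therefore be technical.

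An immunoglobulin light chain gene is assembled in developing B cells by joining a V segment to a J segment, which is then spliced to a constant region. Each B cell or plasma cell thus carries, as a rule, 1 assembled light chain, and the range of V segments transcribed in a tissue reflects many B cell clones. Innate lymphoid cells do not carry functional antigen receptors assembled from such segments. The gut wall holds many plasma cells, most of which secrete immunoglobulin A. V segments of a family are alike in sequence, so that probes for a segment can also bind transcripts of its relatives, and family members are not independent measurements.

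Values are log2 signal as deposited. With 1 group of 2 arrays there was no test of a difference between groups, and no p-value is given. A segment was called above the threshold if, on both arrays, it exceeded the 95th percentile of 1679 olfactory, vomeronasal and taste receptor features, which was 6.74 for array 1 and 6.19 for array 2. Of these reference features, 41 (2.44%) did so themselves. Probes differ in affinity, so signals of different segments do not rank their transcripts by abundance, and statements on high or low signal below concern the signal only.

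Most light chain segments gave signal above the threshold. Of the 87 members 71 (81.6%) were above it on both arrays, against 31.7% of the 28573 features with 1 symbol. A further 7 exceeded the threshold on 1 array and 9 on neither. Of those on a single array, Igkv1-132, Igkv2-112, Igkv8-23-1, Igkv13-87 and Igkv17-134 exceeded it on array 2, and Igkv8-16 and Igkv9-129 on array 1. The threshold was lower on array 2, so Igkv2-112 (6.38 and 6.25) and Igkv17-134 (6.29 and 6.25) exceeded it there although they read lower on that array. Igkv17-127 passed most narrowly, with 7.01 and 6.21. The median of the members' mean signals was 11.10, against 5.43 over all features with 1 symbol. The quartiles were 7.85 and 14.30, and the extremes 3.65 and 19.83. The median member lay at percentile 94.4 of all features with 1 symbol. Of the 286 features in the top 1% by mean signal 14 (4.90%) were light chain segments, and 11 of these belonged to the family Igkv4. The arrays ordered the segments alike, with correlations across the 87 members of 0.989 (Pearson) and 0.987 (Spearman); these points share both arrays and many share sequence, so the values are a description.

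**Figure D1:**
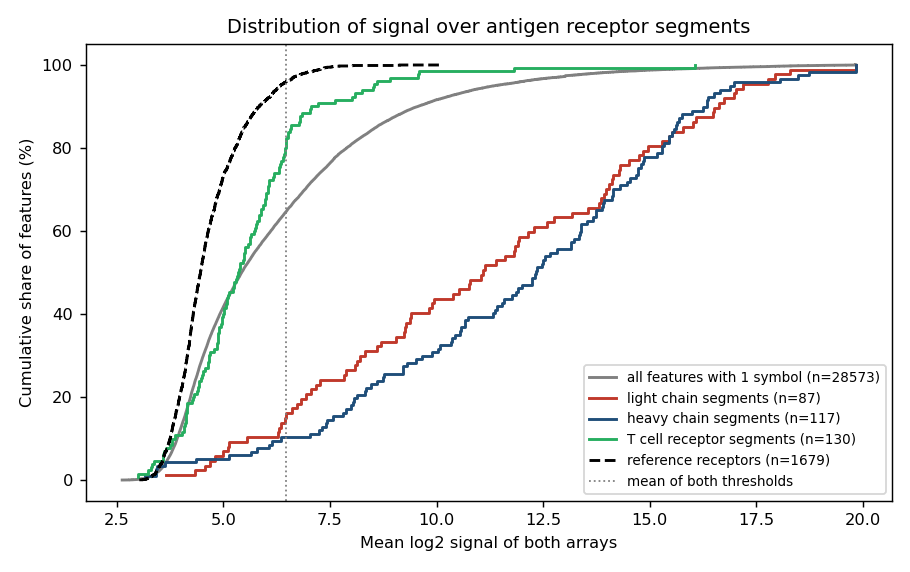
Cumulative share of features (y axis, %) by mean log2 signal of both arrays (x axis) for light chain, heavy chain and T cell receptor segments, all features with 1 symbol and the reference receptors; the dotted line is the mean of both thresholds, 6.47. The light chain curve reaches its median at 11.10 and the curve of all features at 5.43.

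The segments of the other antigen receptor loci on the same arrays gave these values. Of 117 heavy chain V, D and J features 104 (88.9%) were above the threshold on both arrays, with a median signal of 12.34. Of 130 T cell receptor V, D and J features 15 (11.5%) were, with a median of 5.36. These are descriptions of sets of features on the same arrays, with no test between them.

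Genes of antibody-secreting cells were above the threshold beside the segments. Of 14 measured plasma cell genes 13 were, where 31.7% of all features with 1 symbol were. The exception was Tnfrsf17 (5.96 ± 0.59, SD, n = 2), which encodes the plasma cell survival receptor BCMA. The median of the 14 was 8.38. The highest were Jchain (17.79 ± 0.45), which encodes the joining chain of secreted antibody, and Xbp1 (13.50 ± 0.37), a regulator of secretory capacity. Tnfrsf13b, Pou2af1 and Sdc1 passed with lower signals of 6.92, 7.17 and 7.32. Of 10 B cell genes 4 were, Ebf1, Cd79b, Cd79a and Bank1, at signals from 6.65 to 7.21. Pax5, the B cell identity factor, stood at 4.86 on both arrays and Cd22 at 5.52 ± 0.15. Of 7 listed genes of light chain rearrangement and the surrogate light chain 5 were measured, and none of these was above the threshold. Rag1 and Dntt were not measured, so Rag2 (4.08 ± 0.09) alone stood for rearrangement. The others were of the surrogate light chain, Vpreb1 (5.19 ± 0.08) among them. Of 13 listed constant region genes only 4, all of the heavy chain, had a feature with 1 symbol, and 2 of these were above the threshold, Ighg2b (12.62 ± 0.23) and Ighm (12.03 ± 0.32). Ighg1 (6.40 ± 0.36) and Ighe (3.94 ± 0.07) were below it on both arrays, Ighg1 narrowly, with 6.66 and 6.15. Igha, the constant region gene of immunoglobulin A, had no feature with 1 symbol and was not measured. Of 9 genes of antibody folding 8 were above, with the chaperone gene Hsp90b1 at 16.90 ± 0.33. Of 7 measured factors that act on the light chain enhancers 5 were, among them Irf4 (8.55 ± 0.35) and the NF-kB gene Rel (14.45 ± 0.33).

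The labelled cell type, stated to be over 95% pure after the sort, was only partly borne out by its markers. Of 7 measured innate lymphoid genes 4 were above the threshold, Id2 (12.08 ± 0.21), Il10 (10.82 ± 0.32), Il7r (8.92 ± 0.56) and Rora (8.20 ± 0.41). Thy1, Klrb1c and Ncr1, at 5.64, 5.44 and 4.67, were not. All 4 epithelial, both stromal and all 4 macrophage genes measured were above it as well, with medians of 13.65, 16.85 and 11.57, and so were 4 of 5 T cell genes. The part that plasma cells or any of these cells had in the light chain signals was not tested. In RNA from many cells, fewer cells of a type and less RNA per cell cannot be told apart.

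Igkv4, the V kappa family with the most measured segments, held most of the highest signals. Of its 25 measured segments 24 were above the threshold on both arrays and 10 had a mean over 16, a value that a 16-bit scanner cannot exceed on the log2 scale. The family's median signal was 15.45, and without its members the median of the remaining V kappa segments was 9.26, with 46 of 61 (75.4%) above the threshold. Igkv4-59 read 18.17 on array 1 and 18.42 on array 2. Igkv4-71 read 17.78 and 18.08, and Igkv4-54 read 17.63 and 17.91. On each array these segments lay 10.88 or more above the threshold on the log2 scale, far beyond the spread between the arrays. The exception in the family was Igkv4-92, with 5.31 and 4.90, below the threshold on both. Its neighbour in the locus, Igkv4-91, read 13.57 and 14.37. Igkv4-81, with 9.74 and 9.91, had the lowest signal of the 24 that passed.

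The remaining Igkv4 segments fell into a broad range of signal. Igkv4-62, Igkv4-63, Igkv4-57, Igkv4-80, Igkv4-61, Igkv4-55 and Igkv4-86 had means from 16.01 to 17.19. Another 9, Igkv4-91 included, from Igkv4-51 (13.80 ± 0.48) to Igkv4-70 (15.77 ± 0.18), lay below these. Igkv4-60 read 11.89 and 12.68, Igkv4-53 read 11.36 and 12.32, Igkv4-90 read 11.63 and 11.56, and the pseudogene Igkv4-56 read 11.50 and 11.27. The features that list Igkv4-53 among several symbols had higher mean signals, 17.13 with Igkv6-23 and 15.85 with Igkc and others. The median SD between the arrays was 0.22 in the family, small beside its range of 13.19 from lowest to highest mean.

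**Figure D2:**
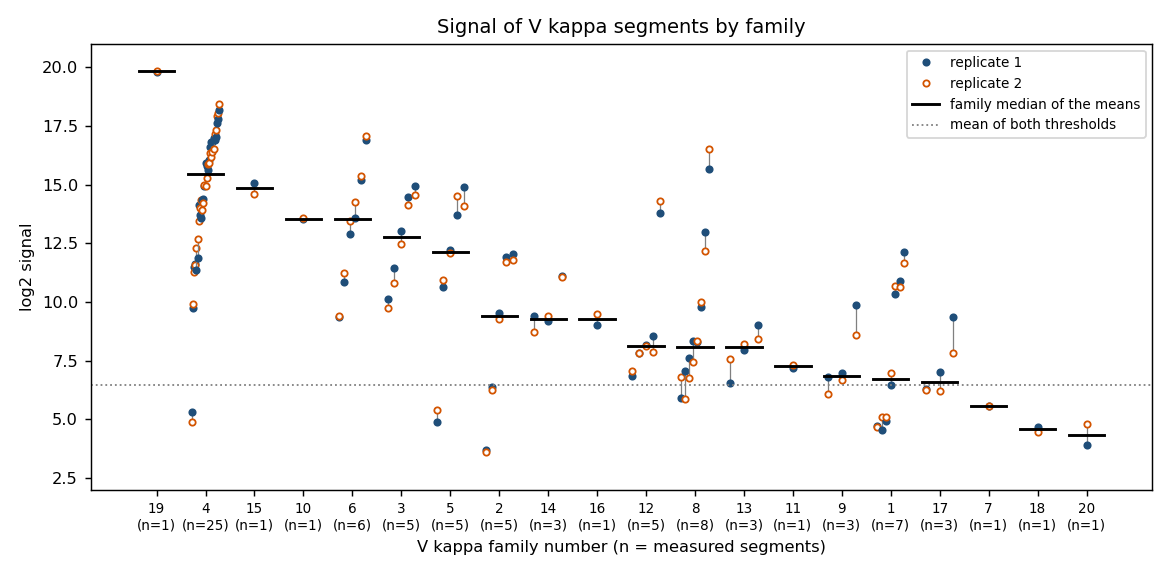
Log2 signal (y axis) of each V kappa segment on array 1 (filled) and array 2 (open), by V family (x axis, ordered by family median), with black bars for the median of the segments' means. Igkv4 has a median of 15.45 over 25 segments, with Igkv4-92 as its low exception, and Igkv8 spans from 6.36 to 16.09.

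Igkv6, Igkv3 and Igkv5 followed by median signal among the 12 families with 3 or more measured segments. All 6 segments of Igkv6 were above the threshold, with a median of 13.55; Igkv6-25 read 16.90 and 17.07, and Igkv6-32, the lowest, read 9.35 and 9.39. All 5 of Igkv3 were above it, with a median of 12.75, from Igkv3-3 (9.94 ± 0.29) to Igkv3-2 (14.74 ± 0.28). In Igkv5 4 of 5 were, with a median of 12.14. Igkv5-43 stood at 14.51 ± 0.58, and Igkv5-37 at 5.13 ± 0.36, below the threshold on both arrays.

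In Igkv12 and Igkv8 a few segments with high signal stood beside many with lower signal. All 5 segments of Igkv12 were above the threshold, but 4 lay between 6.94 and 8.20, whereas Igkv12-46 read 13.78 and 14.31. Its neighbour Igkv12-47, an annotated pseudogene, read 6.84 and 7.04. The feature that lists Igkv12-41 and Igkv12-44, which is not a member, read 13.63 and 13.69. In Igkv8 6 of 8 were above, with a median of 8.10. Igkv8-30 read 15.68 and 16.50, Igkv8-21 read 12.99 and 12.19, and Igkv8-34 read 9.78 and 9.99. The lowest of the family, Igkv8-23-1, exceeded the threshold only on array 2, with 5.92 and 6.81, and Igkv8-16 only on array 1, with 7.07 and 5.86.

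The measured segments of Igkv1 were divided. Of these 7 segments 3 were above the threshold on both arrays, 3 were below it on both, and Igkv1-132 (6.45 and 6.99) exceeded it on array 2 alone. Igkv1-135 (11.91 ± 0.34), Igkv1-133 (10.76 ± 0.17) and Igkv1-88 (10.51 ± 0.23) passed. Igkv1-131 (4.69 ± 0.02) and Igkv1-35 (4.81 ± 0.39) did not, nor did Igkv1-115, an annotated pseudogene that read 4.91 and 5.08. In Igkv2 3 of 5 passed, led by Igkv2-137 (11.93 ± 0.19) and Igkv2-109 (11.81 ± 0.12), while Igkv2-95-2, an annotated pseudogene, had the lowest signal of all members, with 3.69 and 3.61. Igkv14 passed with 3 of 3 segments and a median of 9.28. Igkv13, Igkv9 and Igkv17 passed with 2 of 3 each and medians of 8.08, 6.83 and 6.61.

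The 8 families with 1 measured segment held the highest signal of all and several of the lowest. Igkv19-93, the only entry of its family in the gene table, read 19.80 and 19.86, within 0.001 of the highest value on each array. It was the only member among 17 features with 1 symbol at this ceiling, and its level is a lower bound whose SD does not measure the spread between samples. Igkv15-103 read 15.07 and 14.61, and Igkv10-95 read 13.55 and 13.56. Igkv16-104 stood at 9.26 ± 0.32 and Igkv11-125 at 7.26 ± 0.09, both above the threshold. Igkv7-33 (5.56 ± 0.01), Igkv18-36 (4.56 ± 0.14) and Igkv20-101-2 (4.34 ± 0.64) were below it on both arrays.

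Along the locus the signal was highest in the middle, where Igkv4 lies. The gene table places the J segments at the end of the V array, with Igkv3-1 nearest to them among the measured V segments. Of the 29 measured V segments farthest from the J segments 20 were above the threshold, with a median signal of 9.05. Of the next 29, which include 22 of Igkv4, 28 were above it, with a median of 14.29. Of the 28 nearest the J segments 22 were, with a median of 10.91. Without Igkv4 the middle stretch had the lowest median, 8.20 over 7 segments. The farthest stretch then had 8.82 over 26, and the nearest, which holds no measured Igkv4, kept 10.91. From Igkv4-81 to Igkv4-50, 21 measured segments in a row were all of Igkv4 and all above the threshold, with mean signals from 9.83 to 18.29.

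Segments of other families that lie among those of Igkv4 did not have such signals. Between the outermost Igkv4 segments lay 5 of other families, Igkv12-89, Igkv1-88, Igkv13-87, Igkv13-85 and Igkv13-84, with a median of 8.20 and a range from 7.06 to 10.51. Igkv4-86, which stands between Igkv13-87 and Igkv13-85 in the order of measured segments, read 16.07 and 15.95. Igkv13-85 read 7.94 and 8.23, and Igkv13-87 read 6.55 and 7.57. At the J-proximal end the high signals of Igkv6 and Igkv8 alternated with low ones: Igkv6-25 (16.98 ± 0.12) stood between Igkv8-28 (7.89 ± 0.65) and Igkv8-23-1 (6.36 ± 0.63). A run of segments further from the J segments, Igkv5-37, Igkv18-36 and Igkv1-35, was below the threshold throughout, with mean signals from 4.56 to 5.13.

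**Figure D3:**
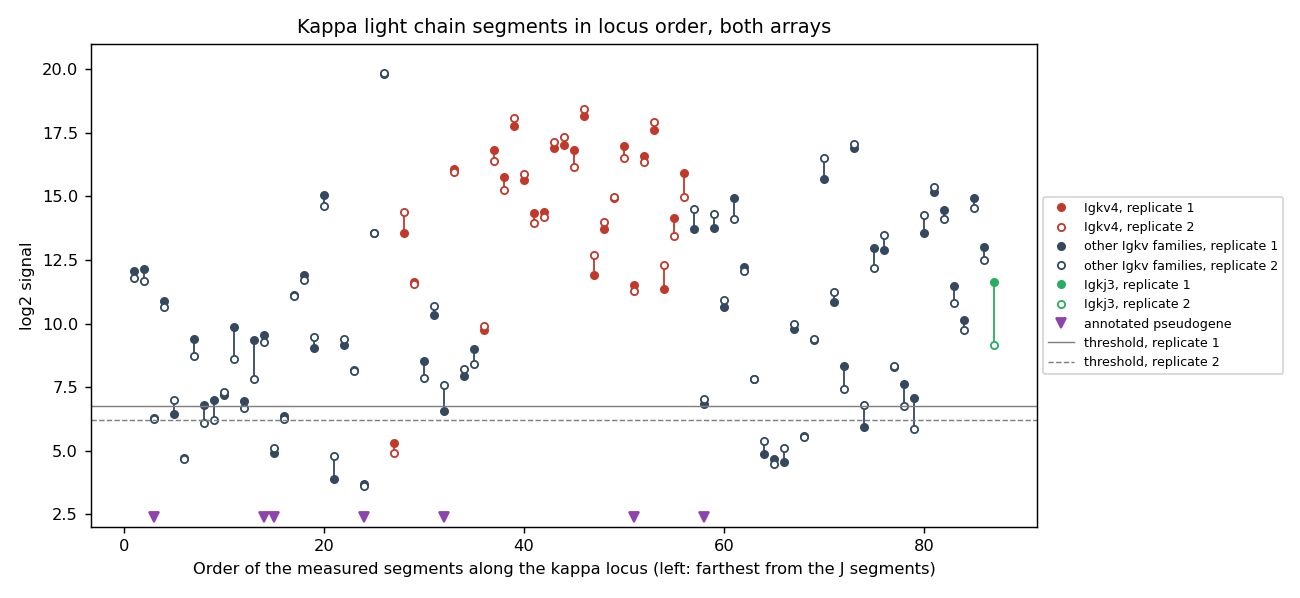
Log2 signal (y axis) of the 87 segments in their order along the kappa locus (x axis, rank with no distance), replicate 1 filled and replicate 2 open, Igkv4 in red, Igkj3 in green, and triangles under annotated pseudogenes; lines mark the thresholds of 6.74 and 6.19. From Igkv4-81 to Igkv4-50 all 21 segments lie between 9.83 and 18.29, and the 5 segments of other families among Igkv4 lie between 7.06 and 10.51.

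The gene table marks 7 of the 86 measured V segments as pseudogenes, which cannot encode a light chain. Of these, 3 (42.9%) were above the threshold on both arrays, where 31.7% of all features with 1 symbol were. A further 2 exceeded it on a single array, and the other 2 were below it on both. The median over the 7 was 6.94. Of the 79 others 67 (84.8%) were above on both, with a median of 11.81. Leaving out Igkv4 gave 2 of 6 pseudogenes with a median of 6.61, and 44 of 55 others with a median of 9.37. The 3 pseudogenes that passed were Igkv4-56 (11.50 and 11.27), Igkv2-116 (9.53 and 9.28) and Igkv12-47 (6.84 and 7.04). The difference between these sets was not tested, as segments are not replicates. The part of signal shared with related segments was not tested either.

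The J segment Igkj3 gave the least repeatable signal of all members. It read 11.63 on array 1 and 9.14 on array 2, above the threshold on both. Igkj3 is the J kappa segment of the mouse that is known not to be used in functional light chains, although the gene table lists it as a J segment like the others. Differences between the arrays are given as array 2 minus array 1, centred on the median of all features with 1 symbol. That of Igkj3 was -2.44. Of 11217 features above the threshold on at least 1 array 28 were as low or lower, and so were 2 of the 1640 with a mean signal within 1 of that of Igkj3, itself included in both counts. With 1 array against 1, this has no replicate check.

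The light chain segments did not lean to either array as a set, but single segments differed. The median centred difference was 0.01, with 45 segments higher on array 2 and 42 on array 1. It was -0.04 without centring or with centring on features above the threshold, and -0.06 after quantile normalization, and under each of these 39 segments were higher on array 2 and 48 on array 1. Features with several symbols are not in these counts. The 14 that list only symbols of the light chain loci ranged from -1.52 to 0.24. Adding those with V or J symbols alone gave a median of 0.002. Of the 78 segments above the threshold on at least 1 array, 2 (Igkv13-87 at 1.08 and Igkv4-53 at 1.01) were over 2-fold higher on array 2, where 2.83% of all such features were. Igkv4-53 was no longer past 2-fold without centring (0.96), with centring on features above the threshold (0.96) or after quantile normalization (0.97), which left Igkv13-87. In the other direction there were 4 (5.13%), where 2.76% of all such features were: Igkj3, Igkv17-121 (-1.49), Igkv9-124 (-1.22) and Igkv8-16 (-1.16). The features that list Igkv4-53 among several symbols, at 0.24 and -0.25, and the one that lists Igkv9-124, at -0.81, were not past 2-fold. Of these 78 segments 49 (62.8%) differed by less than 0.5, against 73.8% of all such features, and their median SD was 0.26, against 0.19.

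**Figure D4:**
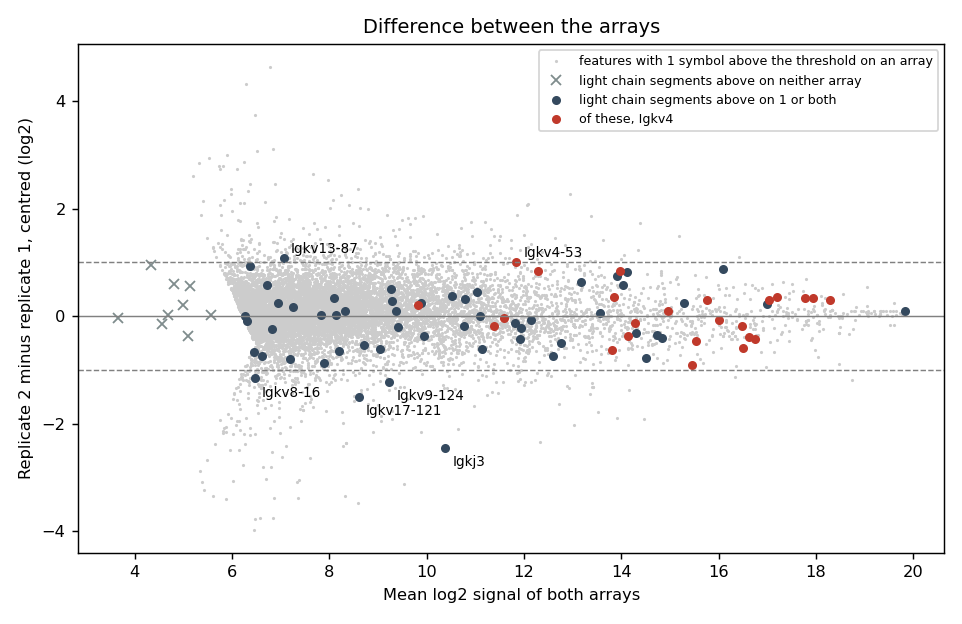
Centred difference, replicate 2 (array 2) minus replicate 1 (array 1) (y axis, log2), against mean log2 signal (x axis) for the light chain segments and, in grey, all features with 1 symbol above the threshold on at least 1 array; dashed lines mark 2-fold. The 6 named segments lie past 2-fold, Igkj3 farthest at -2.44, and Igkv4-53 at 1.01 lies just past the line.

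Some families leaned to 1 array as a group. All 6 segments of Igkv6 were higher on array 2, with centred differences from 0.09 to 0.76, although 1 of them turned to -0.07 after quantile normalization. Features with several symbols, which are not members, were mixed. The feature that lists Igkv6-14 and Igkv6-15 stood at -0.38, whereas the member Igkv6-14 stood at 0.76. The feature that lists Igkv4-53 and Igkv6-23 stood at 0.24. All 5 of Igkv3 were higher on array 1, from -0.61 to -0.30, as were all 5 of Igkv2, from -0.22 to -0.03, and all 3 of Igkv9, from -1.22 to -0.24. These 3 families kept their direction without centring, with centring on features above the threshold and after quantile normalization. In Igkv4 12 segments were higher on array 2 and 13 on the other, with a median of -0.03. Among heavy chain segments 98 of 117 were higher on array 1, and their median was -0.37. Of the 14 plasma cell genes 10 were higher on array 2 and 4 on array 1, with a median centred difference of 0.40. Each of these rests on 1 array against 1 and was not tested, and segments of a family can share probe signal.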

How the data were processed

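The deposited table holds 1 value per feature and array. The authors' values lie between 2.10 and 19.86 and were therefore taken to be log2 signal. Base 2 is an assumption on which every 2-fold limit rests. MAS5 is named, with no version or role, per the submitters' processing notes. The sources used here do not give the build or how values were summarized and scaled. Array medians were 5.02 and 4.90, and 263 features with 1 symbol had a mean over 16. Depth does not apply; the 2 arrays limit the precision.

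Of 61344 features 28573 carried 1 distinct symbol, 2014 several and 30757 none; only the first were named. The thresholds, centring, family and locus groupings were computed in Python 3.11.15 with pandas 2.3.3, and checked on simulated data. Symbols of marker lists were updated through the GRCm38.p6 gene table, and a gene with several features took the one with the highest mean. That table also gave pseudogene status and order along the locus; no coordinates are printed. The promoter comparison was not run because 0 of 87 members matched the promoter table. Named segments are the J member, those at the ceiling, the highest and lowest of each family, families with 1 or 2 members, the largest differences and pseudogenes above the threshold; the remaining segments named were chosen after their values were seen. The members and lists were chosen with earlier results of these data known. Alternatives tried are given in the closing section.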

Additional observations from a re-analysis of the deposited data

Results flagged for a closer look

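Signal was also found in features that list a light chain symbol among several and that the counts of members above leave out. All 16 such features were above the threshold on both arrays, against 36.1% of the 2014 features with several symbols. Of the 16, 2 also list a gene outside the light chain loci, Adck1 or Ighm, and the other 14 had mean signals from 9.82 to 17.13. The feature that lists the constant region Igkc together with 8 V kappa segments, 4 J kappa segments and the locus name had a signal of 15.85 ± 0.21 (SD, n = 2). The feature that lists 3 lambda V, 3 lambda J and 3 lambda constant segments read 15.65 and 15.12, a mean of 15.38. No single gene can be read from either, and the balance of kappa and lambda cannot be taken from them, as probes differ in affinity.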

How the results depend on the processing

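The count of light chain segments above the threshold, 71, was 77 and 65 at the 90th and 99th percentiles of the reference, 68 with keratin-associated protein and Rhox features as the reference, and 73 to 76 on single arrays. The segments lost at the 99th percentile were Igkv17-127, Igkv11-125, Igkv9-123, Igkv12-47, Igkv12-38 and Igkv8-18. Leaving out Igkv4, chosen after seeing the data, gave 47 segments (46 of V kappa) and a median signal of 9.27. The count falls because 24 of the 25 segments left out were above the threshold. The share of V kappa segments above it falls as well, from 81.4% to 75.4%. The median falls because those left out had high signals (median 15.45). The median signal of 11.10 was 11.07 to 11.36 without replicate 1 or replicate 2, 11.38 with features of several V or J symbols added and 11.81 with all features of the light chain loci added, which also gave 1 lambda feature where there had been 0; the last addition was chosen after seeing the data. The 2 segments that exceeded 2-fold toward array 2 became 1 after quantile normalization, 1 without centring, 1 with centring on features above the threshold and 1 without Igkv4; Igkv4-53 was the segment lost each time. No paired analysis was possible because there is 1 group. The arrays' number, not depth, limits every value.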
